A study of Homo sapiens with 8 samples.

Results

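The α-satellite arrays of chromosomes 1, 5 and 19 were examined in maps of CENP-B binding from U2OS cells, a human osteosarcoma line. Every window of 1 kb on these chromosomes, counted from position 1, was a member if at least 1 of its bases was covered by reads in either map. There were 7202 such windows out of 35604 in the whole series, with 2615 on chromosome 1, 2304 on chromosome 5 and 2283 on chromosome 19. Chromatin was cross-linked with formaldehyde, cut with micrococcal nuclease, briefly sonicated and immunoprecipitated with an antibody against CENP-B. The control group was 3 immunoprecipitates of U2OS cells without the knockout, and the other group was 3 immunoprecipitates of ERCC6L2-/- U2OS cells. Knockout lines of the study were made with CRISPR-Cas9, selected with puromycin and grown from single cells, and which clone was used here is not stated. Neither group received any other treatment according to the labels, and 1 input library per background was not used here. The values are the number of reads over each base inside the merged peaks of a group, 1 pooled value per group, so a base without coverage is one outside the peaks that passed the authors' filter, or one without a read inside them. With 1 value per group, replicate error is unknown and the groups were compared without a test. Library depth is unknown, and how reads that match several places were assigned is not stated in the sources used here.

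CENP-B is a DNA-binding protein of centromeres, the chromosome sites at which kinetochores are built. It recognises the CENP-B box, a short motif found in many but not all copies of the α-satellite repeat. α-Satellite is a tandem repeat of human centromeres, and its monomers are grouped into larger units that repeat along an array. Most chromosomes have arrays of their own, whereas chromosomes 1, 5 and 19 carry closely related arrays built from a unit of 2 monomers. ERCC6L2 belongs to the SNF2 family of ATPases, which remodel chromatin, and the study asked how its loss affects centromeric factors.

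In the reference genome, the arrays are more than related. One stretch of 2282185 bases is identical, letter for letter, at chr1:122503248-124785432, chr5:47309185-49591369 and chr19:24908690-27190874 (hg38), and each copy is bounded by unknown bases. It held 85.0% of the control and 97.1% of the ERCC6L2-/- covered bases of chromosome 1, 98.6% and 98.1% of those of chromosome 5, and all of those of chromosome 19. A read from inside this stretch fits all 3 copies equally well, and the chromosome it came from cannot be told apart. The 3 copies therefore do not give 3 independent arrays. They give 3 readings of 1 sequence within each map, and the spread between them shows how much a map varies at a fixed sequence.

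The stretch repeats with a period of 340 bases. Over its first 1 Mb, 68.4% of the bases matched the base 340 further on and 47.0% the base 171 further on, compared with 24.3% at a distance of 250 bases. CENP-B boxes were searched as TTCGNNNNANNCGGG on both strands, and the stretch held 5696 of them, all on the plus strand, or 2.50 per kb. Neighbouring boxes were a median of 340 bases apart, and 80.0% of the spacings were 339 to 341 bases, so that most units carried 1 box. At least 1 box lay in 99.6% of the windows of the stretch, against 1.37%, 1.54% and 4.04% of all windows with known bases on chromosomes 1, 5 and 19. The sites show the repeat in the letters of the reference, each with the first box past the middle of the longest uninterrupted control run of its chromosome. Capitals mark the box, and the sequences are the plus strand of hg38.
chr1:123243529-123243699: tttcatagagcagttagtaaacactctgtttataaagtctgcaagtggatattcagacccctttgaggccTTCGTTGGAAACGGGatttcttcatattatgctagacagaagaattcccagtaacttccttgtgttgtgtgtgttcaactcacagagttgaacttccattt
chr5:48690826-48690996: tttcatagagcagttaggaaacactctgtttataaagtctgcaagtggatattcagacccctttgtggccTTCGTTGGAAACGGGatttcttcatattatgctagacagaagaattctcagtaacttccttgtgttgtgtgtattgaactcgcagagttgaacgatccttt
chr19:26876722-26876892: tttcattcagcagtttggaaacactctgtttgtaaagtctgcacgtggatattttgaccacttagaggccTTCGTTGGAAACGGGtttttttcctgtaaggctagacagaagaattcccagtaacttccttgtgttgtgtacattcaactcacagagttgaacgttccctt
The site on chromosome 1 had a mean of 105 reads over these 171 bases in control, against 63.1 in ERCC6L2-/- cells. At the site on chromosome 5 it was 59.7 and 30.0 reads, and at the site on chromosome 19 it was 250 and 206 reads. All 3 sites lie in the identical stretch, at different places, and the ERCC6L2-/- value was the lower one at each.

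Short reads are ambiguous within a copy as well. Of the 2282136 words of 50 bases in the stretch, 543146 were different, and 16.1% of positions had a word that occurs once in a copy. Words found outside the 3 copies took up 51.9% of positions, and their matches lay mostly on chromosome 16. With words of 150 bases, 79.0% of positions were single within a copy and 3.23% were found elsewhere. The read length is not given in the sources used here, so the share of ambiguous reads cannot be stated.

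Control CENP-B covered nearly all of each array, and the ERCC6L2-/- map left out at least 34.7% of the control bases. As deposited, it was also shallower where it remained. On chromosome 1, control covered 2562523 bases at a mean of 92.0 reads, and ERCC6L2-/- cells 1489888 bases at 80.5 reads. Chromosome 5 had 2282059 bases at 126 reads in control and 1492497 bases at 100 reads in ERCC6L2-/- cells. Chromosome 19 had 2268422 bases at 88.1 reads and 1443754 bases at 74.4 reads. In the deposited values, the ERCC6L2-/- map was thus the shorter and the shallower one on each chromosome. These means are over different bases in the 2 groups and are not scaled for total coverage, on which the direction of the depth difference depends. Of the control bases, 43.1%, 34.7% and 36.5% on chromosomes 1, 5 and 19 had no ERCC6L2-/- coverage. The log2 ratio of covered length, ERCC6L2-/- over control, was -0.78, -0.61 and -0.65 on chromosomes 1, 5 and 19. Covered length rests on peaks called for each group separately, so the unknown depth limits it too.

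Depth was also compared over the bases that both maps covered. There the means were 105 reads in control against 80.7 in ERCC6L2-/- cells on chromosome 1, a log2 ratio of -0.38. On chromosome 5 they were 155 and 101 reads, a log2 ratio of -0.62. On chromosome 19 they were 98.1 and 74.5 reads, a log2 ratio of -0.40. Chromosome 5 stood apart through regions outside the identical stretch, and inside the stretch all 3 ratios were -0.40. These directions hold for the values as deposited. When each map was scaled to its own total coverage, 1.12 was added to every log2 ratio of depth, and the ratios over bases covered in both became 0.74, 0.50 and 0.72.

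Counted in windows, 2633 of the 7173 windows covered in control had no ERCC6L2-/- coverage, which is 36.7%, and the share over all sequences of the series was 40.5%. By chromosome the shares were 41.6%, 32.9% and 34.9%, so the arrays lost about as many windows as the series did. Among the 18 chromosomes with at least 500000 control bases, they held places 8, 6 and 7 when ordered from the smallest share lost. The arrays of chromosomes 13, 14, 21 and 22 lost 65.2% of their control windows and those of chromosomes 11 and 17 lost 13.6%. Of the 4540 windows covered in both maps, 294 had a ratio of mean coverage plus 1 under 0.5, or 6.48%, where 7.28% of all windows did. By chromosome these were 99, 116 and 79 windows, and the counts fell to 23, 51 and 21 with a pseudocount of 10 and to 13, 21 and 8 with own-total scaling. At least 90% of the bases were covered in both maps in 193 of these 294 windows.

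Coverage in ERCC6L2-/- cells without control coverage was rare. It made up 29 windows, all on chromosome 1, where 0.711% of the ERCC6L2-/- windows of the series were of this kind. A single window had a ratio over 2, chr1:123546001-123547000, and it was also the only one in the series, or 0.00474% of the windows covered in both. Its means were 0.080 reads in control against 13.5 in ERCC6L2-/- cells, and 0.50% of its bases were covered in control. The window was named after its values were seen, and it lies at the edge of a gap in the control map of chromosome 1.

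The control map ran almost unbroken along the arrays, and the ERCC6L2-/- map was in pieces. After joining over gaps of up to 1 kb, chromosomes 1, 5 and 19 had 7, 7 and 1 control runs, compared with 20, 23 and 19 ERCC6L2-/- runs. The longest control run was 1191697 bases on chromosome 1 (chr1:123593645-124785341), 1777159 bases on chromosome 5 (chr5:47815686-49592844) and 2281987 bases on chromosome 19 (chr19:24908811-27190797). In ERCC6L2-/- cells the longest was 274233 bases (chr1:124362423-124636655), 223127 bases (chr5:48914934-49138060) and 417176 bases (chr19:26767837-27185012). The median ERCC6L2-/- run was 42409, 35031 and 35352 bases long. Joining over gaps of up to 10 kb left 13, 12 and 16 ERCC6L2-/- runs, the longest with 422953, 478482 and 422913 bases, and 6, 2 and 1 control runs.

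Long stretches inside the control runs had no coverage in the ERCC6L2-/- map of the same chromosome. Within the longest control run of chromosome 1, the longest such stretch was 152410 bases (chr1:123593645-123746054), with a control mean of 73.2 reads and 374 boxes. Within that of chromosome 5 it was 167426 bases (chr5:48024761-48192186), with 69.3 reads in control and 403 boxes. Within that of chromosome 19 it was 171204 bases (chr19:25619870-25791073), with 69.3 reads in control and 409 boxes. All 3 lie in the identical stretch, and those of chromosomes 5 and 19 are largely the same sequence. Part of each was covered in the ERCC6L2-/- map on another copy, so they are not known to lack reads in the cells. A separate control run of chromosome 1, chr1:122237806-122449914, had no ERCC6L2-/- coverage over all of its 212109 bases. The 3 stretches held about as many boxes per kb as the rest of the array, so the motif was present where the ERCC6L2-/- map was empty. Without any joining, control had 580, 547 and 520 runs and ERCC6L2-/- cells 729, 695 and 664, since single uncovered bases cut a run.

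Aligning the copies showed how far this pattern was shared between them. In control, 94.8% of the positions of the stretch were covered on all 3 copies and 0.179% on none. In ERCC6L2-/- cells, 51.8% were covered on all 3 copies, 11.4% on 2, 12.7% on 1 and 24.1% on none. About 1 in 4 positions of the same sequence was therefore listed on some chromosomes and left out on others in the ERCC6L2-/- map. Between chromosomes 1 and 19, 27.9% of the ERCC6L2-/- positions covered on either copy were covered on 1 of them only, against 4.63% in control. Chromosomes 1 and 5 gave 18.2% and 3.97%, and chromosomes 5 and 19 gave 20.9% and 1.42%.

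**Figure D1:**
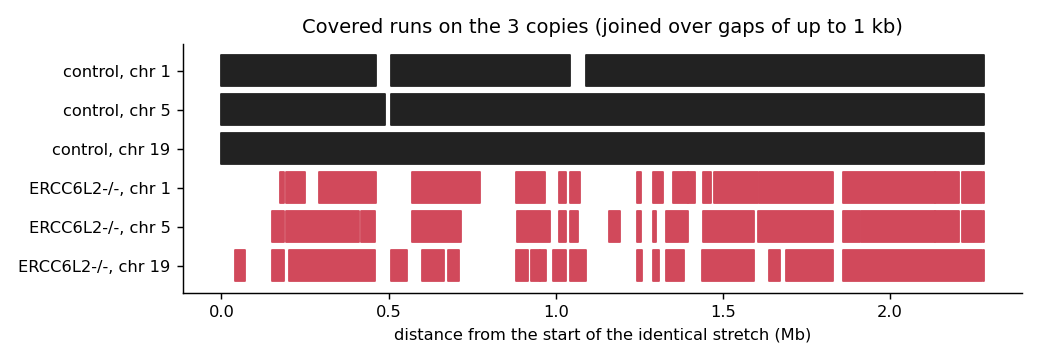
Covered runs, joined over gaps of up to 1 kb, along the 3 identical copies of the stretch, plotted against the distance from its start in Mb. Black bars are control and red bars ERCC6L2-/-. Control has 1 to 3 runs per copy, and ERCC6L2-/- cells have 18, 18 and 19 whose ends often differ between copies.

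The ends of the ERCC6L2-/- runs showed the same. Of the 110 ends in the 3 copies, 28 had an end within 500 bases at the aligned position of both other copies. A position without ERCC6L2-/- coverage on 1 copy could still have reads on another. For example, 233486 positions were covered on chromosome 1 and not on chromosome 19 in the ERCC6L2-/- map. They had a mean of 53.3 reads in ERCC6L2-/- cells on chromosome 1. Control had 75.6 reads there on chromosome 1 and 75.3 reads on chromosome 19. The other 5 ordered pairs of copies had ERCC6L2-/- means of 50.1 to 57.5 reads on the covered copy, and their log2 ratios to control ran from -0.46 to -0.51. A base left out of the map on 1 copy is therefore not known to lack reads in the cells.

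As a result, bases missing from the ERCC6L2-/- map on a chromosome were often covered on another. In the stretch, this map lacked 761709 bases of the control map on chromosome 1, or 35.0%. Of these, 65.2% were also missing on both other copies. The corresponding shares were 66.5% of 788929 bases on chromosome 5 and 65.5% of 827638 bases on chromosome 19. Counting a position as covered when any copy was, ERCC6L2-/- cells covered 75.9% of the stretch and control 99.8%, a log2 ratio of -0.40. Counting it only when all 3 copies were, the log2 ratio was -0.87. The size of the loss in covered length thus depended on which copies were read, while its direction did not.

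Gaps in the control map also differed between copies. Control left out chr1:122965669-123009811, chr1:123546006-123593644 and chr5:47798596-47815685, which are 44143, 47639 and 17090 bases long. At the aligned positions on chromosome 19, control covered 99%, 98.8% and 97.9% of these gaps, with 63.6, 81.9 and 65.5 reads. On chromosome 5, control covered 61.1% and 98.8% of the gaps of chromosome 1. The gap of chromosome 5 lies within the first of these and was not covered on chromosome 1 either. ERCC6L2-/- cells covered 60.3% of the second gap of chromosome 1 and none of the others. This gap holds the longest run covered in ERCC6L2-/- cells only, chr1:123553751-123560673, with 6923 bases, 12 boxes and a mean of 63.3 reads. Of the 31061 bases of the chromosome 1 copy covered in ERCC6L2-/- cells only, 29917 (96.3%) were covered in control on both other copies.

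**Figure D2:**
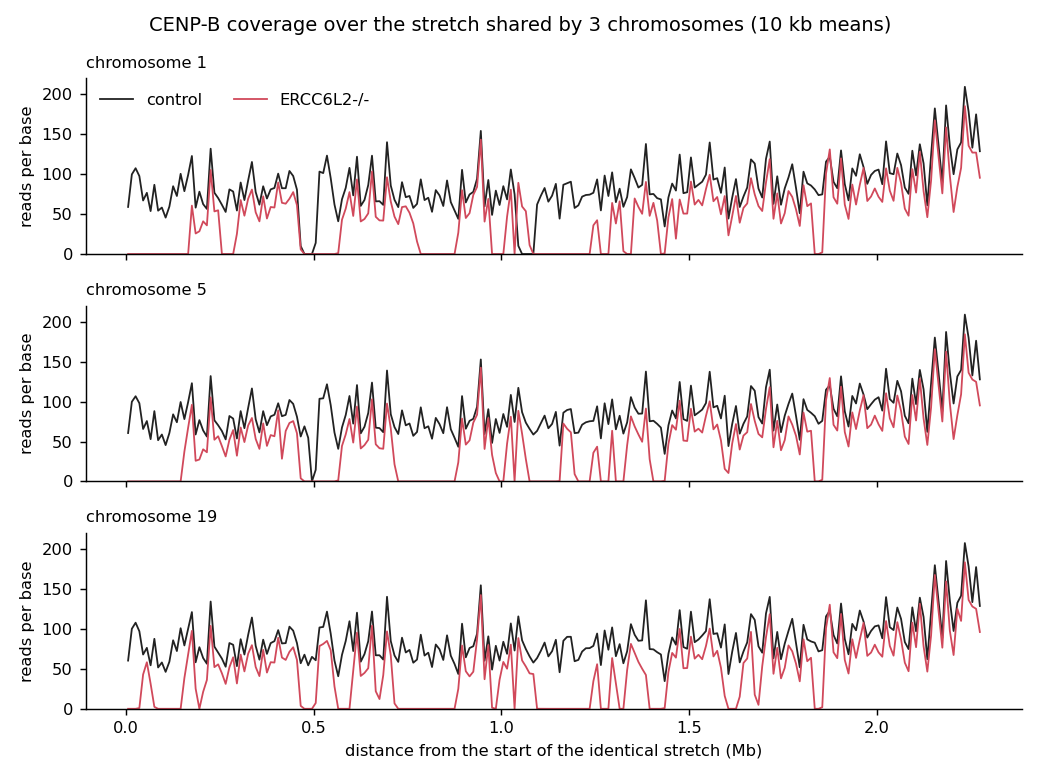
Mean coverage in reads per base over consecutive 10 kb parts of the identical stretch, against the distance from its start in Mb, with 1 panel per chromosome. Control is black and ERCC6L2-/- red. Outside their gaps, the control profiles repeat each other peak by peak, and the ERCC6L2-/- profiles mostly follow at a lower level where they are not at 0. ERCC6L2-/- lies above control on all copies at 1.875 Mb, with 131, 130 and 130 reads against 122, 120 and 123, and on chromosome 1 in the control gap from 1.045 to 1.075 Mb.

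Where they were covered, the copies gave nearly the same depth. In the stretch, mean control coverage of the covered bases was 88.8, 88.3 and 88.1 reads on chromosomes 1, 5 and 19, and in ERCC6L2-/- cells it was 73.8, 74.0 and 74.4 reads. Over windows of 1 kb, the log2 ratio between a pair of copies had an SD of 0.072 to 0.074 in control and 0.086 to 0.089 in ERCC6L2-/- cells, around medians of nearly 0. The lowest Pearson's r between copies was 0.9985 over 1157 to 2233 windows, which share their sequence and libraries.

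As deposited, the difference between the groups was larger than this spread. The copies are 1 sequence, so the spread is no replicate error. A difference in total depth between the maps would also shift all copies together. Of the 2282 aligned windows, 1106 were covered over at least 90% of their bases in all 6 maps (3 copies in 2 groups). The ERCC6L2-/- values of all copies lay below all control values in 1006 of them, or 91%, and above all of them in 58, or 5.24%. The median log2 ratio of the copy means was -0.56, and the central 90% of windows ran from -1.0 to 0.06. Within a window, the median SD of log2 coverage between copies was 0.036 in control and 0.045 in ERCC6L2-/- cells. This spread lies between copies within a pooled map and not between immunoprecipitates, for which there are no values. With each map scaled to its own total, 2 windows lay below and 1047 above, with a median log2 ratio of 0.55.

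**Figure D3:**
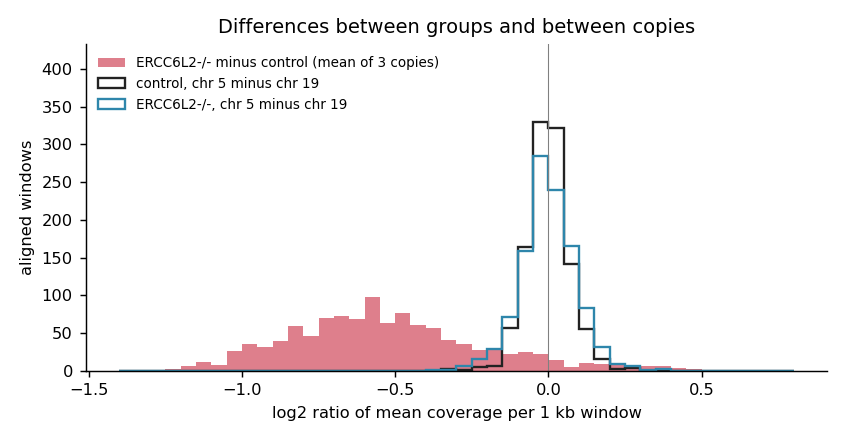
Distribution of log2 ratios of mean coverage over the 1106 aligned windows of 1 kb covered in all maps. The filled red bars are ERCC6L2-/- minus control (means of 3 copies), and the outlines are chromosome 5 minus chromosome 19 within control (black) and within ERCC6L2-/- (blue). Ratios between copies gather around 0, and those between groups spread around a median of -0.56.

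Single windows show both ends of this range. The lowest ratio, -1.25, was found at chr1:122684248, chr5:47490185 and chr19:25089690 (start of the window on each copy). Control had 47.7, 49.0 and 48.4 reads there and ERCC6L2-/- cells 18.8, 20.7 and 21.5 reads, so the groups were far apart on each copy. The highest, 0.58, lay at chr1:124614248, chr5:49420185 and chr19:27019690, with 232, 239 and 237 reads in control and 344, 353 and 360 reads in ERCC6L2-/- cells. The 58 windows with higher ERCC6L2-/- coverage had a median control mean of 213 reads, compared with 77.1 reads in the 1006 lower ones.

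The 4 aligned windows with the highest control means did not all have higher ERCC6L2-/- coverage. In the highest, which starts at base 2156001 of the stretch, control had 671, 663 and 664 reads and ERCC6L2-/- cells 678, 683 and 697 reads on chromosomes 1, 5 and 19. The second had 608, 588 and 592 reads in control and 392, 402 and 399 reads in ERCC6L2-/- cells. In the next, the values were 588, 599 and 585 reads against 791, 787 and 786, and in the last 584, 571 and 579 reads against 350, 356 and 351. As deposited, windows of like control depth thus went in different directions, with log2 ratios of 0.04, -0.58, 0.42 and -0.71. Own-total scaling adds 1.12 to each, which makes all 4 positive. The copies are the same sequence and are no separate evidence. All 4 windows held 2 or 3 boxes and were chosen by their control values. In windows counted from position 1 of chromosome 19, the highest control mean was 643 reads at chr19:27065001-27066000, where ERCC6L2-/- cells had 671. Their own highest was 873 reads at chr19:26782001-26783000, where control had 627.

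Whether ERCC6L2-/- coverage was listed differed along the stretch. Positions are those of the reference, and whether the repeats lie in this order on the chromosomes of U2OS cells was not tested. The stretch was cut into 20 equal parts, and in the first no position was covered in ERCC6L2-/- cells on all copies and 73.4% on none. In the last 3 parts, 97.4%, 95.7% and 90.7% of positions were covered on all copies. The parts between them alternated, with 92.6% in the fourth part, 3.67% in the fifth, 10.4% in the eleventh and 92.7% in the fourteenth. The longest stretch without ERCC6L2-/- coverage on any copy was 107807 bases (chr1:123277292-123385098, chr5:48083229-48191035, chr19:25682734-25790540). Control had 69.9, 69.5 and 70.1 reads over it. The longest stretch covered on all copies was 220602 bases (chr1:124416013-124636614, chr5:49221950-49442551, chr19:26821455-27042056). Here control had 105 reads on each copy, and ERCC6L2-/- cells had 79.9, 80.2 and 80.0 reads.

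Depth followed position as well. Control coverage on chromosome 1 was 74.5 reads in the first part of the stretch and 149 reads in the last, and chromosomes 5 and 19 had the same values within 1 read. Over bases covered in all 6 maps, the log2 ratio between the groups ranged from -0.64 to -0.24 over the 19 parts that had such bases. The lowest value, in the tenth part, rests on only 2693 bases, and the next lowest, -0.55 in the eleventh, on 11899. The log2 ratio was -0.51 in the second part and -0.28 in the last.

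Deeply covered windows were listed more often in ERCC6L2-/- cells. In the tenth of windows with the lowest control depth, with a median of 25.7 reads, 41.2% had ERCC6L2-/- coverage on all copies and 31.9% on none. In the tenth with the highest, with a median of 215 reads, the shares were 77.3% and 8.33%. Between these, the share covered on all copies lay between 47.4% and 60.9%. Positions covered on no copy in ERCC6L2-/- cells still had a mean of 70.6 reads in control, where control covered all copies, and positions covered on all 3 had 103 reads.

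The number of boxes varied little between windows and went with coverage only weakly. Spearman's rho between boxes per window and control depth was 0.096 over 2153 windows, and between boxes and the number of copies covered in ERCC6L2-/- cells it was 0.043 over 2282 windows. Windows with 1 box had a median control mean of 59.3 reads, those with 2 boxes 67.4 reads and those with 3 boxes 74.9 reads. The repetition of the sequence went with control depth more closely, with a rho of 0.49 against the log10 number of copies of a window's 50-base words in the stretch. For the log2 ratio between the groups the same rho was 0.26 over 1106 windows. Windows share libraries and sequence, and the part of repetition in the depth was not tested.

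The 3 commonest box sequences differed in depth more than in being covered. The stretch held 64 sequences of the 17-base box, written here with the 15 searched bases in capitals.
commonest: cTTCGTTGGAAACGGGa
second: cTTCGTTGGAAACGGGt
next: tTTCGTTGGAAACGGGa
The commonest had 2892 sites per copy, or 50.8%, of which control covered 98.4% and ERCC6L2-/- cells 64.8%, with 118 and 106 reads at covered sites. The second had 2071 sites, with 98.0% and 65.5% covered and 78.3 and 63.6 reads. The next had 258 sites, with 98.4% and 65.2% covered and 64.5 and 45.4 reads. The share covered in ERCC6L2-/- cells was thus alike for the 3 forms, which differ only in the base at either end of the motif, and the depth was not. Rarer forms differed more in this share. A form with 29 sites per copy had 50.6% covered in ERCC6L2-/- cells, and another with 11 sites had 69.7%.

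Around the box, the signal had a like shape in the 2 groups. Averaged over the 1608 boxes with both flanks covered in all maps, the value at its centre was 132 reads in control and 109 in ERCC6L2-/- cells. It was lowest 151 bases before the box, at 69.4 and 55.0 reads, and highest 74 bases after it, at 162 and 125 reads. The highest value within 170 bases was 2.34 times the lowest in control and 2.28 times in ERCC6L2-/- cells.

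**Figure D4:**
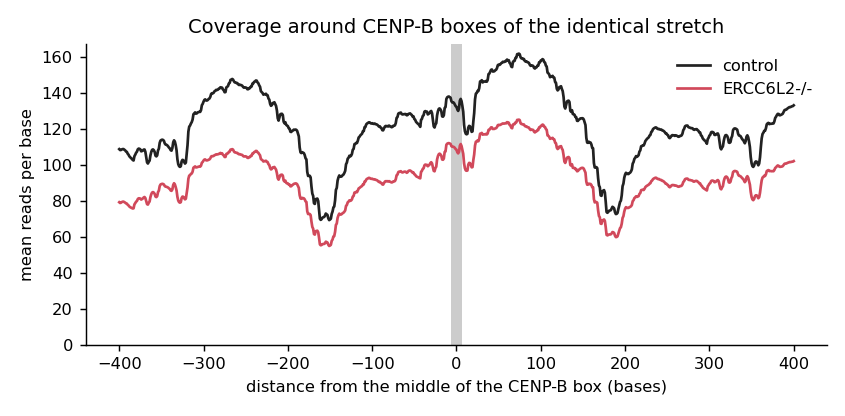
Mean reads per base within 400 bases of the middle of the CENP-B box (grey band), over 1608 boxes of the identical stretch and its 3 copies. Control is black and ERCC6L2-/- red. Both curves dip 151 bases before the box and peak 74 bases after it, and the ERCC6L2-/- curve lies below control throughout.

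Outside the identical stretch, the flanks of chromosomes 1 and 5 held 12 further covered pieces of at least 1 kb (joined over gaps of up to 1 kb), and chromosome 19 held none. They overlap no annotated gene. On chromosome 1, the region chr1:121736572-121777991 shared 67.0% of its 50-base words with the stretch and held 80 boxes. It had 145 reads in control against 95.4 in ERCC6L2-/- cells over bases covered in both, a log2 ratio of -0.61. The other 3 regions of chromosome 1 with boxes shared 0.478% to 1.60% of their words with the stretch, and matched themselves best at a distance of 171 bases and not 340. These were chr1:122237806-122449914 with 373 boxes and a control mean of 82.1 reads, chr1:122452381-122503147 with 89 boxes and 73.7 reads, and chr1:124861204-124941000 with 87 boxes and 85.0 reads. None of the 3 had any ERCC6L2-/- coverage.

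These 3 regions enter the larger loss of covered length on chromosome 1. Restricted to the identical stretch, covered length changed by -0.59, -0.62 and -0.65 (log2) on chromosomes 1, 5 and 19. Their control depth was close to that of the stretch, of which the ERCC6L2-/- map kept about 2 in 3 bases.

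On chromosome 5, a group of short, very deep pieces lay past the end of the stretch. The piece chr5:49609728-49618984 had 3780 reads in control against 1761 in ERCC6L2-/- cells over bases covered in both, a log2 ratio of -1.10. The piece chr5:49641947-49646823 had 4909 and 2153 reads, a log2 ratio of -1.19. Between them, chr5:49621624-49628097 had a log2 ratio of -1.12 and chr5:49630730-49633793 one of -1.01. All 4 shared 62.2% to 70.9% of their words with the stretch and held 7 to 12 boxes. As deposited, their ratios were lower than that of the stretch, which was -0.40, and with them the ratio of the whole chromosome was -0.62. Own-total scaling adds 1.12 to each ratio, which brings these pieces to about level between the groups and keeps them below the stretch.

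The 2 pieces without a box were not lower in ERCC6L2-/- cells as deposited. The region chr1:125178803-125183135 had 2064 reads in control against 2191 in ERCC6L2-/- cells over bases covered in both, a log2 ratio of 0.09. The region chr5:49599406-49603128 had 501 and 546 reads, a log2 ratio of 0.12. Neither shared a 50-base word with the stretch. Both were rich in GGAAT, counted on both strands, with 49.4 and 63.8 per kb, compared with 3.98 per kb in the stretch and 1.85 to 2.26 per kb over all known bases of the 3 chromosomes. GGAAT was present in 79.7% to 88.0% of all windows of 1 kb of these chromosomes, and it is the unit of a different family of pericentromeric satellite. With own-total scaling these pieces, like the stretch, would be higher in ERCC6L2-/- cells, and the order of the ratios does not depend on the scaling.

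The deepest site of each flank shows the difference in sequence. The lines give the plus strand of hg38 around the base with the highest control value in the window of 1 kb with the highest control mean, with the box, here on the minus strand, in capitals where there is one.
chr1:125180108-125180278: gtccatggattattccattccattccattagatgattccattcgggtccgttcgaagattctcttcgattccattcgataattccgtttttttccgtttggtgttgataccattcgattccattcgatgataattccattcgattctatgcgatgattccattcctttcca
chr5:49645988-49646158: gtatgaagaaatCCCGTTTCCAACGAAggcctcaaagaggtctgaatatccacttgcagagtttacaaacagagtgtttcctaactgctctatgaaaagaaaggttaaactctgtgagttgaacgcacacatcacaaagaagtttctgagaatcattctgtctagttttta
The mean over these 171 bases was 11947 reads in control against 12182 in ERCC6L2-/- cells on chromosome 1. On chromosome 5 it was 37883 and 16461 reads. In the deposited values, the site without a box was thus level between the groups. The α-satellite site of chromosome 5 fell to less than 0.5 of its control depth. The site chosen in the same way on chromosome 19, chr19:27065380-27065550, lies in the identical stretch and holds a box. It had 2105 reads in control and 2157 in ERCC6L2-/- cells, so not every deep site with a box was lower.

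**Figure D5:**
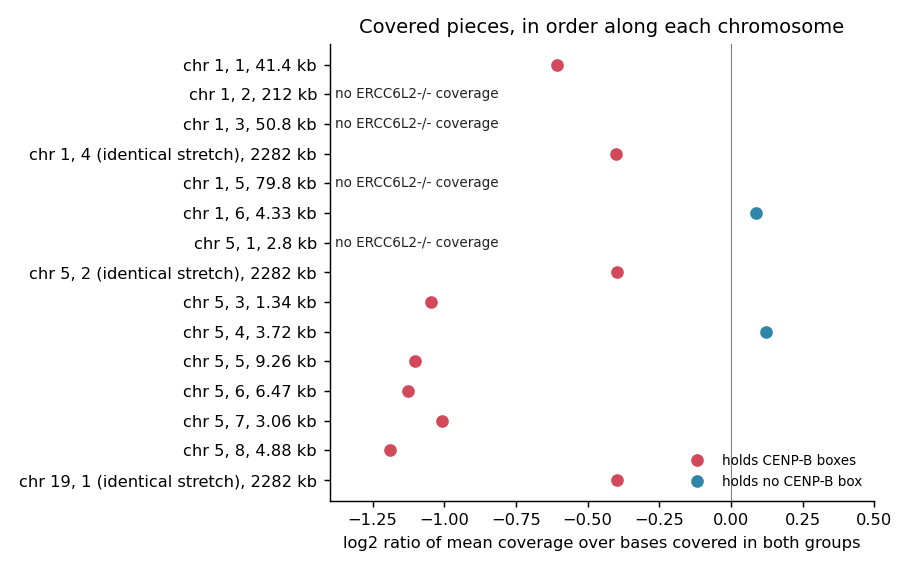
Log2 ratio of mean coverage, ERCC6L2-/- over control, over bases covered in both groups, for each covered piece in its order along chromosomes 1, 5 and 19, with its length in kb. Red points are pieces with CENP-B boxes and blue points pieces without, and 4 pieces had no ERCC6L2-/- coverage. The 2 pieces without a box sit just above 0, the identical stretch at -0.40 on each chromosome, and 5 short pieces of chromosome 5 between -1.19 and -1.01.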

How the data were processed

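CENP-B immunoprecipitates of control and ERCC6L2-/- U2OS cells (3 each) were analysed. According to the paper's methods and the submitters' notes, the authors used FastQC for read quality, Trim Galore for trimming, Bowtie2 for mapping to GRCh38 and MACS2 for peaks, kept peaks past a stringent FDR threshold and merged the replicates' peaks with MSPC. No versions, scaling or handling of duplicates are stated. The authors deposited 1 coverage signal per group, in whole reads per base, as intervals of equal value. Depth per sample is therefore unknown, and no interval or test was possible.

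Intervals were expanded per base with Python 3.11.15, numpy 2.4.6, pandas 2.3.3 and pysam 0.24.0. Unlisted bases lie outside the filtered peaks and counted as 0, whether or not they had reads, and a base was covered above 0 reads. Windows were 1 kb, and their ratios used mean coverage plus 1 with limits of 0.5 and 2. Identical stretches were found by comparing the hg38 sequences, and genes came from GENCODE release 44. Coordinates are 1-based. Sequences named in the deposited maps fitted the reference lengths, except 1 that it does not hold.

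Named regions were, per chromosome, the longest runs and empty stretches, the highest windows, the longest run in ERCC6L2-/- cells only, the strongest distant runs, and the boxes described. The extremes among aligned windows, the gaps and the flanking pieces were chosen after their values were seen. Members and lists were chosen with earlier results of these data known. The alternatives were other scalings, a cap, minimum reads, joining distances, a pseudocount of 10, the longest array block and, chosen after seeing the data, the identical stretch alone. Window calling was tested on simulated data from the control profile, where 200 of 200 changed and 200 of 200 lost windows among 2282 were found and 0 others were called. Figures used matplotlib 3.10.9.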

Additional observations from a re-analysis of the deposited data

How the results depend on the processing

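No paired analysis was possible because each group has 1 pooled column without replicates, and leaving out a replicate could not be run for the same reason. Values are given for chromosomes 1, 5 and 19 in that order. The log2 ratio of summed coverage, -0.97, -0.93 and -0.90 as deposited, reversed to 0.14, 0.18 and 0.22 with each group scaled to its own total coverage. It was -0.28, -0.24 and -0.20 when scaled to bases covered in both groups on other chromosomes and -1.07, -0.87 and -0.95 with a cap at 760 reads. It was -1.05 for the longest array block of chromosome 1, and -0.86 and -0.88 in the identical stretch of chromosomes 1 and 5. The log2 ratio of covered length, which no scaling of the deposited values changes, was -0.95, -0.77 and -0.82 at a minimum of 10 reads. At 50 reads it was -1.20, -0.96 and -1.01. The longest array block of chromosome 1 gave -0.80, and the identical stretch of chromosomes 1 and 5 gave -0.59 and -0.62. For mean depth over bases with coverage in both groups, the log2 ratio reversed to 0.74, 0.50 and 0.72 with own-total scaling, and to 0.32, 0.074 and 0.30 when scaled to other chromosomes. It was -0.43, -0.41 and -0.43 with the cap, and -0.40 in the identical stretch of both chromosomes 1 and 5. ERCC6L2-/- runs numbered 729, 695 and 664 unjoined, 20, 23 and 19 joined over 1 kb, 13, 12 and 16 joined over 10 kb, and 4173, 4114 and 3925 at a minimum of 10 reads. Windows with a ratio under 0.5 numbered 99, 116 and 79, then 23, 51 and 21 with a pseudocount of 10, and 13, 21 and 8 with own-total scaling. The counts of lost windows stayed within 1.5 times under each alternative run. The causes of these changes were not tested, and unknown depth and the single pooled value limit every comparison of depth. They limit covered length as well, since peaks were called for each group separately and the minimum reads count deposited reads.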

Other observations

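Identity between the reference chromosomes reaches beyond the covered arrays. The region chr5:49667532-49721203 is identical to chr19:24498981-24552652 over 53672 bases, and chr5:49721304-50059807 to chr19:24552753-24891256 over 338504 bases. They match themselves at a distance of 171 bases at 56.5% and 57.7% of positions, but hold 11 and 3 CENP-B boxes, respectively. Neither map covered any base of them on either chromosome. The covered stretch of 2282185 bases, whose period is 340 bases, holds 5696 boxes.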
